A study of Homo sapiens with 15 samples.

Results

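The 10 genes described here are SRF and 9 genes of the contractile actin apparatus, namely ACTA2, TAGLN, CNN1, CNN2, TPM1, TPM2, TPM4, VCL and FLNA. They were taken by symbol from the deposited count table, and all 10 were present among its 18858 genes. The RNA came from MDA-MB-231, an established human breast cancer cell line, in 5 groups of 3 libraries each. Control cells were not transfected, siControl cells received a non-targeting siRNA pool, siYAP cells a pool against YAP1, siTAZ cells a pool against WWTR1 (the gene for TAZ), and siYAP+TAZ cells both pools, and so more siRNA in total. Knockdown ran for 48 h before the cells were seeded on gelatin, which holds for all transfected groups. All groups were 1 cell line without any genetic change, and the knockdowns were transient.

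SRF is a transcription factor that binds the CArG box, a short DNA element with an A/T-rich core, near genes of muscle contraction, the actin cytoskeleton and the immediate response to growth factors. Its MRTF cofactors are held back by monomeric actin and enter the nucleus when actin polymerizes, whereas its ternary complex cofactors (the ELK proteins) respond to MAP kinase signalling. YAP and TAZ act through TEAD factors, and several cytoskeletal genes are known targets of both systems. In smooth muscle and myofibroblasts, ACTA2, TAGLN and CNN1 are classical SRF-dependent genes, whereas CNN2, TPM4, VCL and FLNA are expressed in many cell types.

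The promoter windows of RefSeq (GRCh38.p14) were searched for the CArG box, because it is the element through which SRF acts. Only the exact form of 10 bases was counted: CC, a core in which every base is A or T, and GG. Each window held 300 bases, with 250 bases before and 50 bases from the annotated start. The box is its own reverse complement in form, so a search of either strand finds it. 9 of the 10 genes had at least 1 window, 14 in all. TAGLN was not analysed here. A CArG box lay in a window of 4 of the 9 genes, against 1.6% of all 27305 genes with a window and 1.29% of all 35116 windows. The set was chosen as SRF and contractile actin genes, so this difference is a description and enrichment was not tested. The 4 stretches are printed 5′ to 3′ with the boxes in capitals.
SRF, chr6:43171209-43171268, plus strand: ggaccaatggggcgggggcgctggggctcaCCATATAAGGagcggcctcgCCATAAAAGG
CNN2, chr19:1026489-1026558, plus strand: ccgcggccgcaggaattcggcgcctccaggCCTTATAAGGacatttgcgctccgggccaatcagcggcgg
TPM4, chr19:16067335-16067404, plus strand: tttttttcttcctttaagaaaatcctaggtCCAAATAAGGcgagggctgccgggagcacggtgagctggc
FLNA, chrX:154374689-154374758, minus strand: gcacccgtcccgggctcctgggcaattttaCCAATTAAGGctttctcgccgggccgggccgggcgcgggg
SRF itself carried 2 boxes, which began 30 and 10 bases before its start. The boxes of CNN2, FLNA and TPM4 began 89, 94 and 173 bases before the RefSeq start of their window. The TEAD motif CATTCC, searched on both strands, occurred once in a window of ACTA2 and once in that of VCL, and in 14.0% of all windows. In GENCODE 44 on the same assembly, the genes with a called change lie at chr15:63042620-63071915 (TPM1), chr19:1026586-1039068 (CNN2) and chr19:16067021-16103002 (TPM4), all on the plus strand. The printed TPM4 stretch therefore lies inside the GENCODE gene, after its first base, and precedes a start that RefSeq places further in. A match describes the letters in this window and is not a measured binding site. A gene without a match may carry the element elsewhere, or in the same window in a form with another base, which was not searched.

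Depth ran from 18696737 to 30107312 counted reads per library, and no pair of libraries held identical counts. The deposited table lists raw read counts, and the normalized read counts below are these counts scaled to a common library size with edgeR's TMM factors. MDA-MB-231 markers such as VIM (24540 to 33934 normalized counts) were high throughout, the luminal markers FOXA1 and PGR did not exceed 5.10 and 8.32, and GATA3 was present at 424 to 680. In bulk RNA, fewer cells expressing a gene and less RNA per cell cannot be told apart. The study describes independent sets of experiments, but the labels do not say which libraries form a set.

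The siRNA targets were examined first. YAP1 was at 4431, 4333 and 4202 normalized counts in siControl, at 1013, 2764 and 761 in siYAP, and at 2240, 2202 and 1796 in siYAP+TAZ. WWTR1 was at 1995, 1850 and 1579 in siControl, at 828, 254 and 521 in siTAZ, and at 1133, 1123 and 1284 in siYAP+TAZ. Every targeted library lay below every siControl library, but siYAP replicate 23 kept more YAP1 RNA than the other siYAP libraries. Every siYAP+TAZ library had more WWTR1 RNA than every siTAZ library (log2 difference 1.13, edgeR adjusted p = 0.0648). By edgeR against siControl, 0 of the 2 targets had an adjusted p of at most 0.05 in siYAP+TAZ and 0 in siYAP. In siTAZ 1 of the 2 did, and it was lower. At an unadjusted p under 0.05 stood 1 of the 2 in each of these comparisons.

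Levels differed widely among the 10 genes. On a scale per kilobase of annotated exon and per 1000000 counted reads (RPKM), FLNA, an actin cross-linker, had a mean of 602 over the 15 libraries (range 530 to 666), above every library of every other gene of the set. CNN2 followed at 114 (91.3 to 140), TPM4 at 89.9 (79.1 to 106), SRF at 86.5 (75.8 to 100) and VCL at 65.7 (57.0 to 76.5), and these neighbours overlapped in their ranges.
TPM2 (8.12), TPM1 (4.19) and TAGLN (1.27) formed a lower tier in which no neighbouring ranges overlapped. ACTA2 (0.18) and CNN1 (0.072) were near the bottom and overlapped. The genes that mark smooth muscle were thus the lowest of the set, while their non-muscle relatives were abundant: ACTB and ACTG1 reached 1918 and 1732 RPKM, TAGLN2 272 and CNN3 154. These levels depend on the union of annotated exons, which covers many alternative transcripts and lowers a value per kilobase where it is long, as for TPM1 (14700 bases), TPM4 (12375), FLNA (10860) and VCL (9992). TAGLN (6550) and ACTA2 (5628) also had longer unions than their relatives TAGLN2 (2262) and ACTB (4405). In normalized counts, TAGLN (mean 197) and ACTA2 (24.1) still lay below TAGLN2 (14548) and ACTB (199770). In normalized counts, TPM4 (mean 26311) and VCL (15524) stood above CNN2 (9820), whose exons span 3640 bases, so the order of these genes depends on the scale.

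**Figure D1:**
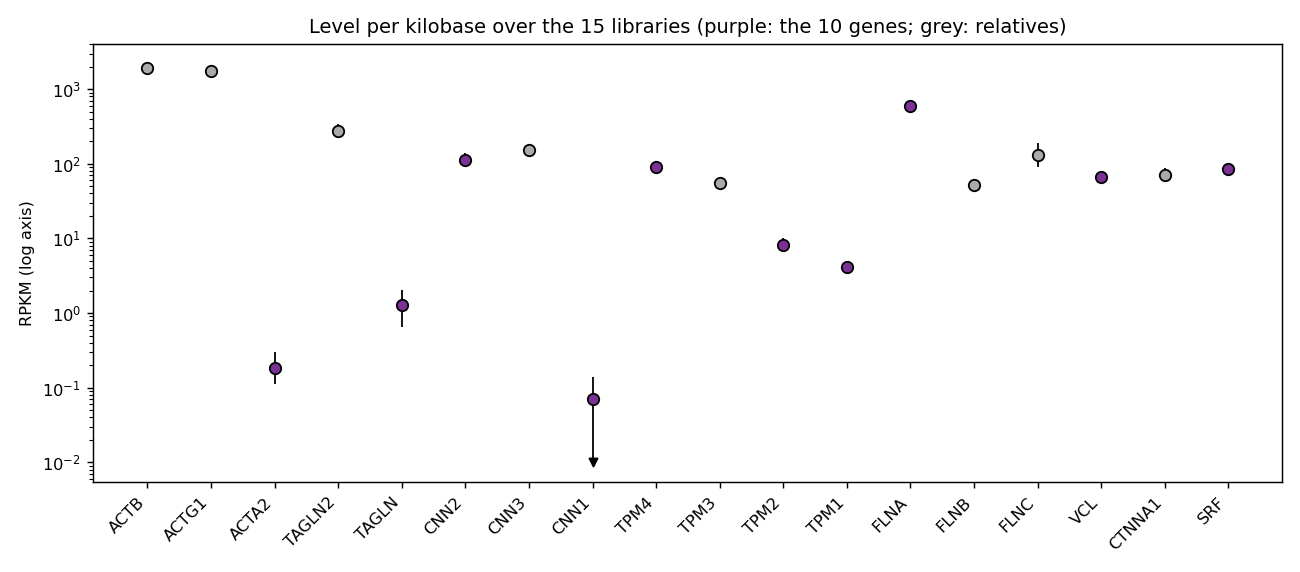
Mean RPKM over the 15 libraries on a log axis for the 10 genes (purple) and their relatives (grey), with the line from the lowest to the highest library; the arrowhead of CNN1 marks a library at 0. FLNA stands at 602 and ACTB at 1918, whereas ACTA2 and CNN1 stand at 0.18 and 0.072.

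Knockdown of both YAP and TAZ was compared with siControl to ask whether the set moved when both coactivators were reduced. TPM1 and CNN2 fell, TPM4 rose, and the other 7 genes did not pass the test in the fit without a block. With the run of library numbers (16 to 20, 21 to 25 and 26 to 30) as a block, SRF, ACTA2 and VCL passed as well, 6 of the 10 in all, where 28.6% of all genes passed. In edgeR's quasi-likelihood test across all genes, 3 of the 10 genes had a Benjamini-Hochberg adjusted p of at most 0.05, 1 higher and 2 lower, where 18.4% of all genes did (9.97% higher and 8.39% lower). None of the 10 also reached an absolute log2 fold change of 1, the study's second criterion, which 3.46% of all genes met. The median log2 fold change of the 10 was −0.03, beside −0.0048 over all genes. The 3 siYAP+TAZ libraries lay wholly above the siControl libraries for 2 of the 10 genes and wholly below for 3, against 18.2% of all genes above and 18.2% below.

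TPM1 encodes a tropomyosin, a coiled-coil protein that lies along actin filaments and governs the access of myosin and cofilin. Its normalized counts were 1614, 1662 and 1519 in Control, 1583, 1588 and 1680 in siControl, 1205, 1388 and 1235 in siYAP, 1569, 1613 and 1478 in siTAZ, and 1233, 1286 and 1208 in siYAP+TAZ. All 6 libraries that received the YAP1 pool lay below all 9 that did not. The log2 fold change against siControl was −0.38 (SE 0.071, edgeR adjusted p = 0.00104) in siYAP+TAZ and −0.34 (SE 0.071, edgeR adjusted p = 0.0258) in siYAP, a fall to 0.77 and 0.79 of the siControl level.
In siTAZ the value was −0.06 (SE 0.071, edgeR adjusted p = 0.765). TPM1 was called in siYAP+TAZ under all 15 alternatives tried. The siYAP call was lost when siControl replicate 17 (adjusted p = 0.0996), 22 (0.0752) or 27 (0.0959), or siYAP replicate 18 (0.143) or 28 (0.131), was left out in turn, with scaling by library size only (0.0700) and with only the groups compared in the fit (0.0827), and was kept (0.0235) without siYAP replicate 23, the library with the most remaining YAP1 RNA. The antisense gene TPM1-AS shares 18.0% of the exonic bases of TPM1 and did not exceed 7.51 normalized counts.

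TPM4, the gene of a tropomyosin of non-muscle cells, went the other way. It was at 23154, 25142 and 24367 normalized counts in Control, at 24340, 24658 and 24584 in siControl, at 25366, 26602 and 25432 in siYAP, at 27626, 31021 and 27042 in siTAZ, and at 29494, 29620 and 26213 in siYAP+TAZ. All 9 knockdown libraries lay above all 6 libraries without a targeting pool. The log2 fold change against siControl was 0.21 (SE 0.072, edgeR adjusted p = 0.0453) in siYAP+TAZ, 0.22 (SE 0.072, edgeR adjusted p = 0.121) in siTAZ and 0.07 (SE 0.072, edgeR adjusted p = 0.779) in siYAP. The siYAP+TAZ call was lost without siControl replicate 17 (adjusted p = 0.104), 22 (0.106) or 27 (0.0953) and without siYAP+TAZ replicate 20 (0.152) or 25 (0.138). Of its 50-base stretches, 11.0% also occur in transcripts of other genes, among them the pseudogenes TPM4P2 and TPM4P3.

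TPM2, a further tropomyosin and one found in muscle and in fibroblasts, ranged from 509 to 762 normalized counts over all libraries. Its log2 fold change was 0.04 (95% confidence interval −0.24 to 0.32) in siYAP+TAZ, and its groups overlapped throughout. With TPM3, which does not belong to the 10 genes, the tropomyosin reads could be read as a composition within each library, free of any scaling between libraries. TPM4 made up 52.6% ± 0.76 (SD, n = 3) of the reads of the 4 tropomyosin genes in siControl, 55.8% ± 1.31 in siYAP, 54.9% ± 1.32 in siTAZ and 58.2% ± 1.40 in siYAP+TAZ. TPM1 made up 3.47% ± 0.064 in siControl and 2.54% ± 0.089 in siYAP+TAZ, and TPM3 42.6% ± 0.71 and 38.0% ± 1.23. Between siControl and siYAP+TAZ the share of TPM4 thus differed by 5.56 percentage points, that of TPM3 by −4.61 and that of TPM1 by −0.92, and most of the difference in TPM4 was matched by TPM3. TPM3 itself had a log2 fold change of −0.10 (edgeR adjusted p = 0.43).
Of 5 such ratios computed, that of TPM4 to TPM1 reads was 15.4, 15.5 and 14.6 in the siControl libraries and 14.3, 15.1 and 16.0 in the Control libraries. It was 21.0, 19.2 and 20.6 in siYAP, 17.6, 19.2 and 18.3 in siTAZ, and 23.9, 23.0 and 21.7 in siYAP+TAZ. Each knockdown group was wholly above siControl, which gives an exact two-sided permutation p of 0.1, the smallest that 3 libraries against 3 allow.

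**Figure D2:**
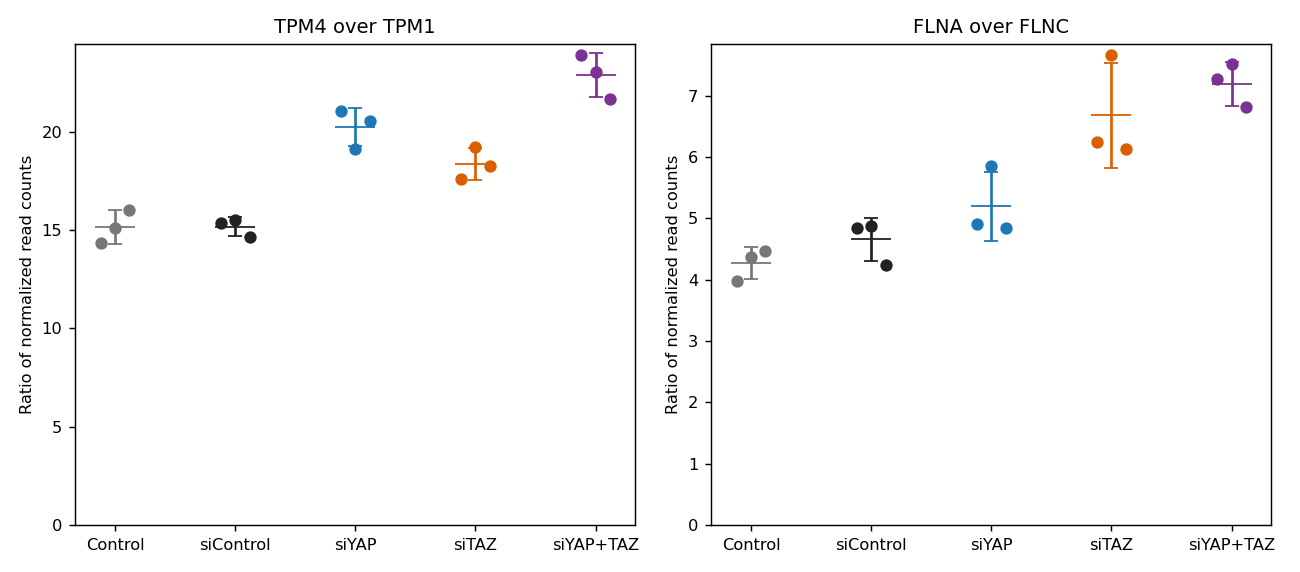
Ratio of normalized read counts within each library for TPM4 over TPM1 (left) and FLNA over FLNC (right), with 3 libraries per group as points and the mean ± SD as a bar; both axes start at 0. The TPM4 to TPM1 ratio has a mean of 15.2 in siControl and 22.9 in siYAP+TAZ, and the FLNA to FLNC ratio has means of 4.65 and 7.19.

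CNN2 encodes the calponin of non-muscle cells, an actin-binding protein linked to cell motility. It was at 8960, 10304 and 10447 normalized counts in Control, at 9910, 10559 and 10251 in siControl, at 9352, 9690 and 8817 in siYAP, at 10895, 12081 and 10358 in siTAZ, and at 9310, 8507 and 7858 in siYAP+TAZ. The siYAP and siYAP+TAZ libraries all lay below siControl, whereas siTAZ overlapped it. The log2 fold change against siControl was −0.26 (SE 0.082, edgeR adjusted p = 0.033) in siYAP+TAZ, −0.14 (adjusted p = 0.536) in siYAP and 0.12 (adjusted p = 0.525) in siTAZ.
The siYAP+TAZ call was lost without siControl replicate 17 (adjusted p = 0.0539), 22 (0.113) or 27 (0.0736), without siYAP+TAZ replicate 25 (0.0852) or 30 (0.143), with scaling by library size only (0.0730) and with Control as the reference (0.0796). Its relative CNN3 also fell in siYAP+TAZ, by 0.27 on the log2 scale (edgeR adjusted p = 0.00886), so that the ratio of CNN2 to CNN3 reads was 0.976 ± 0.063 (SD, n = 3) in siControl and 0.984 ± 0.11 in siYAP+TAZ.

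CNN1, the calponin of smooth muscle, was barely detected. Its normalized counts ran from 0 to 9.38 over the 15 libraries, with siControl replicate 27 at 0, and the groups overlapped. A change in this gene was not detectable at this depth: the 95% confidence interval of its log2 fold change in siYAP+TAZ reached from −0.82 to 2.64.

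SRF itself was abundant and moved little. Its normalized counts were 8182, 8740 and 10032 in Control, 9262, 8830 and 9543 in siControl, 7805, 8079 and 8341 in siYAP, 9157, 8698 and 8989 in siTAZ, and 8087, 8439 and 7579 in siYAP+TAZ. The siYAP and siYAP+TAZ libraries all lay below siControl, but not below Control. The log2 fold change against siControl was −0.20 (95% confidence interval −0.35 to −0.04, edgeR adjusted p = 0.0771) in siYAP+TAZ, −0.19 (−0.35 to −0.04, adjusted p = 0.297) in siYAP and −0.04 (−0.20 to 0.12, adjusted p = 0.846) in siTAZ, none of which passed the test. With the run of library numbers as a block, the siYAP+TAZ value passed (−0.20, edgeR adjusted p = 0.0224), and SRF was below siControl in each of the 3 runs.
Of the genes with a CArG box in the printed windows, CNN2 fell and TPM4 rose in siYAP+TAZ, SRF passed with the block and not without it, and FLNA did not pass the test with or without it. TPM1, which fell, had no box in its window.

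ACTA2 encodes smooth muscle alpha-actin, the actin of smooth muscle and myofibroblasts. It was at 26.0, 25.6 and 25.0 normalized counts in Control, at 18.7, 14.8 and 18.2 in siControl, at 19.9, 17.5 and 16.4 in siYAP, at 25.0, 39.8 and 24.4 in siTAZ, and at 38.0, 21.5 and 31.2 in siYAP+TAZ. Every siTAZ and siYAP+TAZ library lay above every siControl library, but both groups overlapped Control. The log2 fold change against siControl was 0.80 (95% confidence interval 0.22 to 1.38, edgeR adjusted p = 0.0513) in siYAP+TAZ and 0.78 (0.19 to 1.36, adjusted p = 0.162) in siTAZ.
The siYAP+TAZ value passed the threshold with the run of library numbers as a block (adjusted p = 0.0348), with DESeq2's size factors (adjusted p = 0.0491), with library size only (0.0442), with both stricter filters on low counts (0.0413 and 0.0407) and without siYAP+TAZ replicate 25 (0.0266). With Control in place of siControl it was 0.24 (adjusted p = 0.599), and siControl stood below Control by −0.56 (95% confidence interval −1.16 to 0.03). ACTA2-AS1 and FAS, on the other strand, cover 36.0% of the exon sequence of ACTA2, and the use of strand in the counting is not given in the sources used here. ACTA2-AS1 did not exceed 11.7 normalized counts, and FAS had a log2 fold change of 0.20 (edgeR adjusted p = 0.579) in siYAP+TAZ and 0.50 (adjusted p = 0.236) in siTAZ; their part in the ACTA2 values was not tested.

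TAGLN encodes transgelin (SM22), an actin-binding protein and early smooth muscle marker. It was at 274, 315 and 195 normalized counts in Control, at 218, 158 and 219 in siControl, at 133, 159 and 102 in siYAP, at 261, 291 and 180 in siTAZ, and at 171, 140 and 138 in siYAP+TAZ. All siYAP and siYAP+TAZ libraries lay below all Control and siTAZ libraries, whereas siControl replicate 22 overlapped them. The log2 fold change against siControl was −0.59 (95% confidence interval −1.03 to −0.14, edgeR adjusted p = 0.238) in siYAP, −0.41 (−0.85 to 0.04, adjusted p = 0.206) in siYAP+TAZ and 0.30 (−0.13 to 0.73, adjusted p = 0.513) in siTAZ.
The siYAP value passed with the run of library numbers as a block (−0.60, edgeR adjusted p = 0.0443), although TAGLN was lower than siControl in 2 of the 3 runs and at 0.0075 in the other. With Control as the reference, the siYAP value was −0.99 (adjusted p = 0.0247) and the siYAP+TAZ value −0.81 (adjusted p = 0.0116), and siTAZ turned to −0.10. TAGLN shares 34.1% of its exonic bases with PCSK7 on the opposite strand and 38.1% with an unnamed gene on its own strand. PCSK7 had a log2 fold change of −0.21 (edgeR adjusted p = 0.0645, and 0.0314 with the block) in siYAP+TAZ and −0.05 (adjusted p = 0.892) in siYAP, and its part in the TAGLN values was not tested. The related TAGLN2, expressed well above TAGLN on the RPKM scale, rose by 0.38 (edgeR adjusted p = 0.00079) in siYAP+TAZ.

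VCL encodes vinculin, which links integrin adhesions and cadherin junctions to actin. It ranged from 13478 to 14961 normalized counts in siControl, from 14215 to 16330 in siYAP, from 13838 to 17681 in siTAZ and from 14797 to 18068 in siYAP+TAZ, and all groups overlapped. Its log2 fold change in siYAP+TAZ was 0.23 (95% confidence interval 0.02 to 0.44, edgeR adjusted p = 0.134), and passed the threshold with the run of library numbers as a block (0.22, adjusted p = 0.0117) and without siYAP+TAZ replicate 30 (0.32, adjusted p = 0.0434). AP3M1 covers 11.1% of the exonic bases of VCL on the opposite strand and fell by 0.28 (edgeR adjusted p = 0.0184); its part in the VCL values was not tested.
FLNA was at 150720, 153240 and 171080 normalized counts in siControl, 143050, 143960 and 135980 in siYAP, 168730, 164060 and 156530 in siTAZ, and 145820, 160430 and 136700 in siYAP+TAZ. Only siYAP lay wholly below siControl, with a log2 fold change of −0.17 (95% confidence interval −0.33 to −0.01, edgeR adjusted p = 0.389). In siYAP+TAZ the value was −0.10 (−0.26 to 0.06, adjusted p = 0.408).
The muscle filamin FLNC, in contrast, fell by 0.74 in siYAP+TAZ (SE 0.11, edgeR adjusted p = 9.79e-05), and the ratio of FLNA to FLNC reads was 4.84, 4.88 and 4.24 in siControl and 7.26, 7.51 and 6.81 in siYAP+TAZ (exact two-sided permutation p = 0.1).

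**Figure D3:**
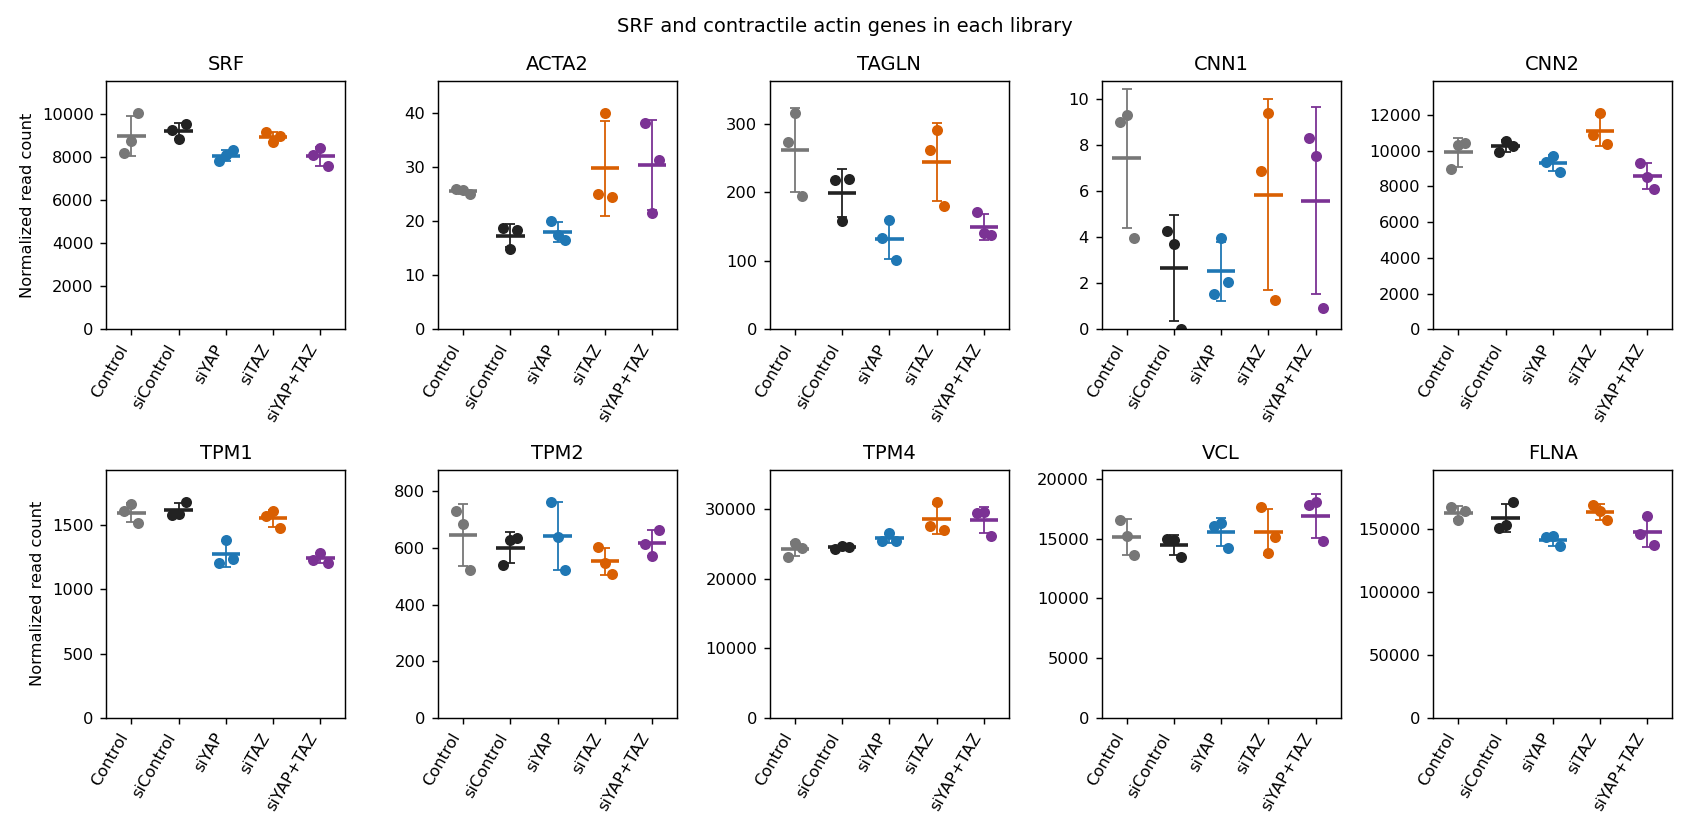
Normalized read counts of the 10 genes on linear axes from 0, with each library as a point and the mean ± SD of 3 libraries per group. TPM1 lies between 1205 and 1388 in the 6 libraries with the YAP1 pool and between 1478 and 1680 in the other 9, whereas CNN1 stays at or below 9.38.

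In the comparison of siYAP with siControl, TPM1 was the single gene of the 10 that passed, against 0.933% of all genes tested. With the block, TAGLN passed as well, where 6.1% of all genes did. At an unadjusted p under 0.05 stood 4 of the 10 and 11.9% of all genes. By position alone, 1 of the 10 lay wholly above siControl and 4 wholly below, against 9.65% and 9.86% of all genes. The median log2 fold change of the 10 was −0.13, beside 0.0025 over all genes.
Knockdown of TAZ alone gave no call in the set by edgeR, where 2.03% of all genes were called; 2 of the 10, ACTA2 and TPM4, had an unadjusted p under 0.05, where 16.0% of all genes did. DESeq2 called 1 of the 10 and 4.25% of all genes, and limma-voom 0 and 1.88%. ACTA2 and TPM4 were also the 2 that lay wholly above siControl, and 0 lay wholly below, against 10.7% and 10.2% of all genes. The median of the 10 was 0.11, beside 0 over all genes.
The 3 knockdown comparisons share the siControl libraries, so their values stand side by side and are not independent.

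**Figure D4:**
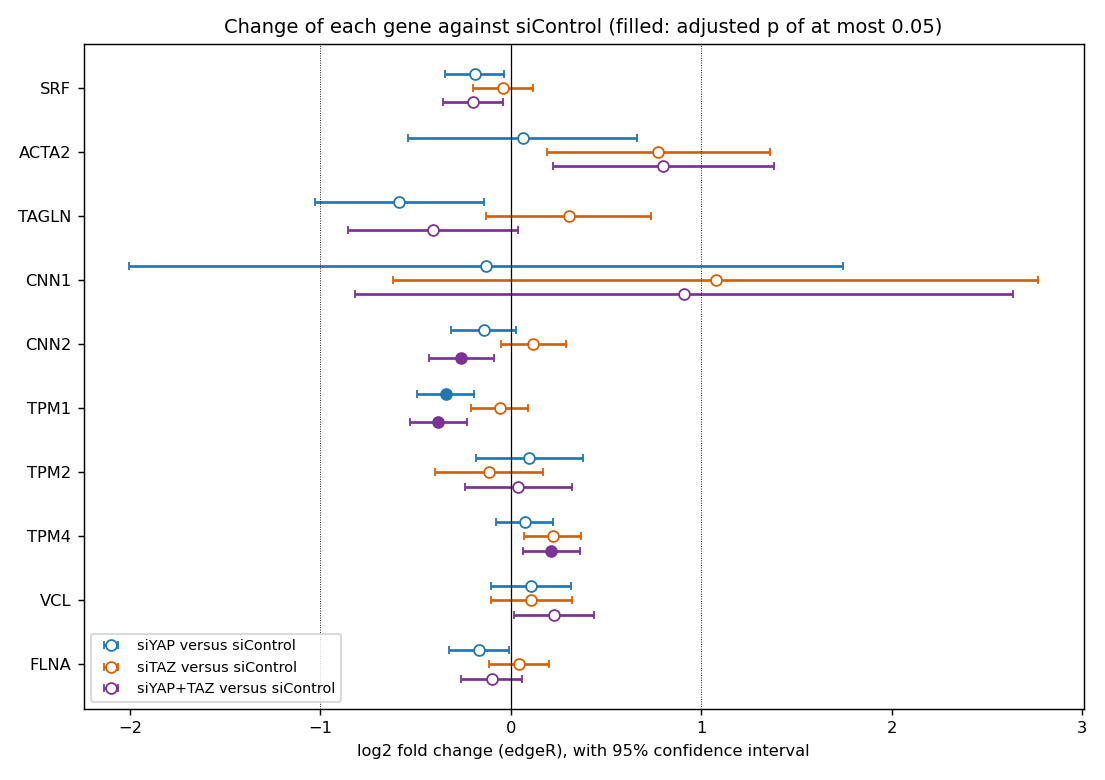
Log2 fold change against siControl with its 95% confidence interval for the 10 genes after each knockdown; filled points have an adjusted p of at most 0.05 in the fit without a block and dotted lines mark 1 and −1. The filled points are TPM1 in siYAP (−0.34) and TPM1 (−0.38), CNN2 (−0.26) and TPM4 (0.21) in siYAP+TAZ.

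The 2 single knockdowns were then compared directly, without siControl. Of the 10 genes, 7 lay wholly lower in siYAP than in siTAZ (SRF, ACTA2, TAGLN, CNN2, TPM1, TPM4 and FLNA), where 9.38% of all genes did, and the median log2 difference of the 10 was −0.23, beside 0.0019 over all genes. No gene of the set was called by edgeR, where 0.642% of all genes were; 5 of the 10 had an unadjusted p under 0.05, against 13.7% of all genes. DESeq2 called 2 of the 10 and 1.88% of all genes, and limma-voom 0 and 0.642%.
The differences of lowest adjusted p were TAGLN at −0.89 (SE 0.21, edgeR adjusted p = 0.0646) and TPM1 at −0.28 (SE 0.071, adjusted p = 0.0761). ACTA2 differed by −0.71 (SE 0.27, adjusted p = 0.249), CNN2 by −0.26 (SE 0.082, adjusted p = 0.158) and FLNA by −0.21 (SE 0.076, adjusted p = 0.216). VCL differed by −0.0016 (95% confidence interval −0.21 to 0.21), and TPM2 was the only gene of the set with a positive sign (0.21, adjusted p = 0.528).

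Adding the YAP1 pool to the WWTR1 pool separated 2 genes of the set. Between siYAP+TAZ and siTAZ, 5.44% of all genes were called and 2.38% were called lower, and of the 10 genes CNN2 and TPM1 were called lower. CNN2 differed by −0.38 (SE 0.082, edgeR adjusted p = 0.0108) and TPM1 by −0.32 (SE 0.072, adjusted p = 0.0125), while TAGLN differed by −0.71 (SE 0.21, adjusted p = 0.0586). The count was 0 without siTAZ replicate 24, 1 without siYAP+TAZ replicate 20 or 30, and 3 without siTAZ replicate 29.
Adding the WWTR1 pool to the YAP1 pool gave no call in the set by edgeR, DESeq2 or limma-voom, where 5.13% of all genes were called by edgeR. ACTA2 was the 1 gene of the 10 with an unadjusted p under 0.05, where 19.2% of all genes had one, with siYAP+TAZ above siYAP by 0.74 (SE 0.27, edgeR adjusted p = 0.131).
The interaction of the knockdowns, a departure of the joint effect from the sum of the single effects, was called for none of the 10 by edgeR, DESeq2 or limma-voom, and 0.0106% of all genes were called by edgeR. At an unadjusted p under 0.05 stood 0 of the 10 and 5.85% of all genes. For TPM1 it was 0.02 (95% confidence interval −0.19 to 0.23), and for CNN2 −0.24 (−0.48 to 0.0062). The non-targeting pool itself gave no call against Control in the set or among all genes (0%) by edgeR without a block. At an unadjusted p under 0.05 were 0 of the 10 and 2.11% of all genes, and DESeq2 and limma-voom called 0 of the 10. With the run of library numbers as a block, edgeR called 1 of all 18858 genes (0.0053%).

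The genes around SRF were read from 4 lists of cofactors, immediate early genes, other listed targets and paralogs, with 47 genes tested. By edgeR 14 of the 47 were called with both pools, where 18.4% of all genes were, 3 with siTAZ (2.03% of all genes) and 0 with siYAP (0.933%). At an unadjusted p under 0.05 stood 17 of the 47 with both pools, 15 with siTAZ and 8 with siYAP, where 30.3%, 16.0% and 11.9% of all genes did. With the run of library numbers as a block, 18 of the 47 were called with both pools (28.6% of all genes) and 7 with siYAP (6.1%). The 7 were TGFB1I1, which was higher, and FHL2, EGR1, MCL1, CCN1, CCN2 and FLNC, which were lower. The shares of all genes called higher (9.97%) and lower (8.39%) with both pools stand behind each list's count. Of 7 SRF cofactors tested, 1 was called higher and 1 lower in siYAP+TAZ. MRTFA, the actin-regulated coactivator of SRF, rose by 0.29 (SE 0.084, edgeR adjusted p = 0.0195), from 1056, 1105 and 1150 normalized counts in siControl to 1381, 1324 and 1349. FHL2, a LIM protein that binds SRF, fell by 0.42 (SE 0.082, adjusted p = 0.00141), from 2134, 2170 and 2094 to 1788, 1594 and 1400. The siYAP+TAZ libraries did not overlap siControl for either gene.
The other cofactors did not pass without the block, with which ELK3 did (edgeR adjusted p = 0.0359). Their log2 fold changes were 0.11 for MRTFB, 0.16 for ELK1, 0.17 for ELK3, −0.04 for ELK4 and 0.05 for SCAI, an MRTF repressor. The ratio of SRF to MRTFA reads was 8.35 ± 0.40 (SD, n = 3) in siControl and 5.95 ± 0.39 in siYAP+TAZ, without overlap (exact two-sided permutation p = 0.1).

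Of 10 immediate early genes, which SRF drives with the ELK cofactors, 2 were called higher and 0 lower. IER3 rose by 0.65 (SE 0.16, edgeR adjusted p = 0.00941), and EGR2, a zinc finger transcription factor, by 1.36 (SE 0.46, adjusted p = 0.0485) at 11.8 to 21.3 normalized counts in siControl and 27.5 to 53.7 in siYAP+TAZ. FOS (0.20) and EGR1 (0.19) did not pass. With the run of library numbers as a block, EGR3 was called higher as well (1.18, edgeR adjusted p = 0.00416). EGR3 was at 9.66 to 18.5 normalized counts in siControl and 25.7 to 46.4 in siYAP+TAZ. FOSB differed between runs of library numbers in every group, at 306 to 609 normalized counts in libraries 26 to 30 and 591 to 1933 in the others.

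Of 18 other genes listed as SRF targets, most of them cytoskeletal, 2 were called higher and 4 lower in siYAP+TAZ. The 4 that fell were ANKRD1 (−1.35, edgeR adjusted p = 0.0233), CCN1 (−1.17, adjusted p = 8.37e-06), CCN2 (−0.99, adjusted p = 0.00113) and LIMA1 (−0.61, adjusted p = 1.37e-05). ANKRD1, CCN1 and CCN2 are standard YAP and TAZ targets and not cytoskeletal genes: CCN1 and CCN2 encode secreted matricellular proteins and ANKRD1 an ankyrin-repeat cofactor of transcription. LIMA1, which encodes an actin cross-linker, was the 1 cytoskeletal gene of the 4. With the run of library numbers as a block, SMTN, also a cytoskeletal gene, was called lower as well (−0.26, edgeR adjusted p = 0.0266). TGFB1I1 (Hic-5, a focal adhesion protein) rose by 0.42 (adjusted p = 0.000939) and PDLIM7 rose as well. ZYX, TLN1, MYH9 and CALD1 did not pass.
In siTAZ, 1 of the 18 was called higher, the myosin light chain MYL9 (0.66, edgeR adjusted p = 0.00872), and 1 lower, CCN1 (−0.65, adjusted p = 0.0109). Of 12 paralogs of the set, 2 were called higher and 2 lower in siYAP+TAZ: TAGLN2 and CTNNA1 (0.29, adjusted p = 0.0172) rose, and CNN3 and FLNC fell. With the run of library numbers as a block, the actin gene ACTG2 was called higher as well (2.02, edgeR adjusted p = 0.00435). It had few reads, at 1.07 to 6.47 normalized counts in siControl and 11.9 to 19.3 in siYAP+TAZ. ACTB and ACTG1 had log2 fold changes of 0.0022 and 0.0031. Of 10 smooth muscle markers, 5 were tested and 1 was called, the intermediate filament gene SYNM (0.52, adjusted p = 0.0234), while MYH11 and LMOD1 did not exceed 22.6 and 7.34 normalized counts.

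**Figure D5:**
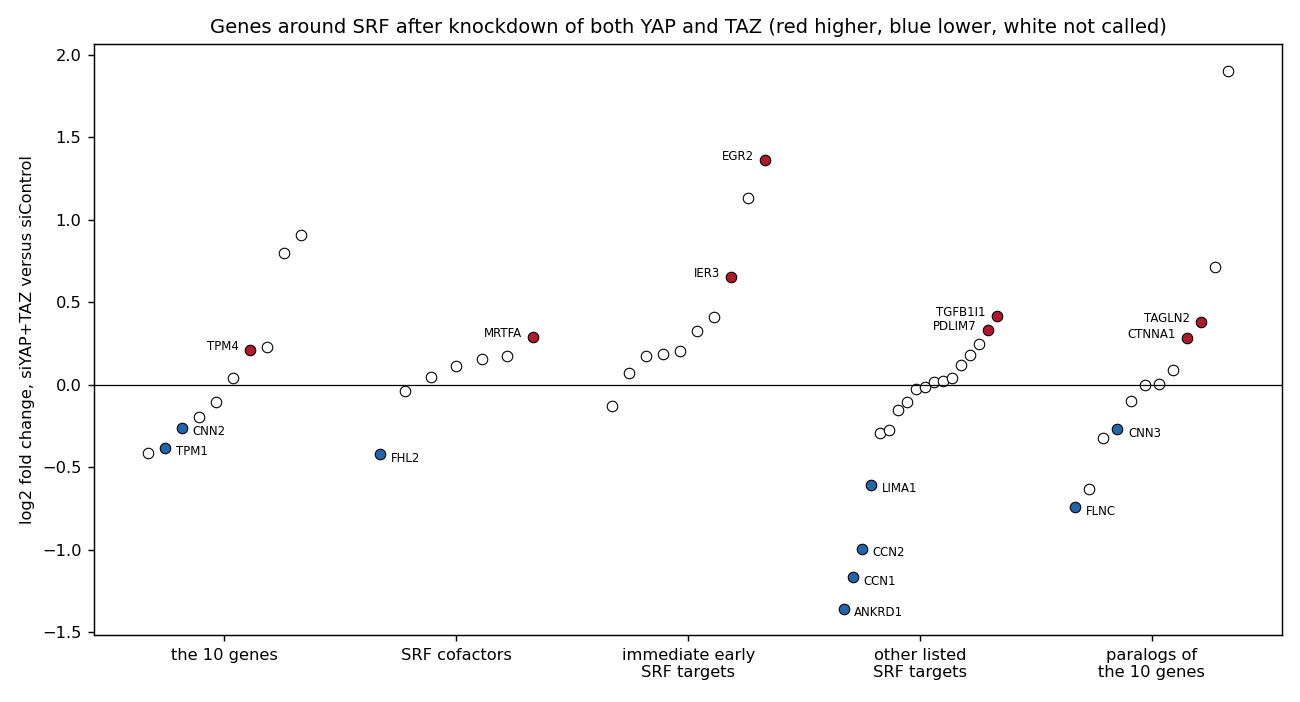
Log2 fold change in siYAP+TAZ versus siControl for the 10 genes and the genes of 4 of the lists, ordered by value within each, with red for called higher, blue for called lower and white for not called in the fit without a block. Among the 10 genes the called values run from −0.38 to 0.21, whereas ANKRD1 and EGR2 in other lists reach −1.35 and 1.36.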

How the data were processed

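Polyadenylated RNA was sequenced by the INCPM-mRNA-seq protocol on a NovaSeq instrument. The authors trimmed reads with cutadapt in the UTAP pipeline, aligned them with STAR 2.4.2a (version from the submitters' processing notes) to GRCh38, and deposited raw read counts per gene with GENCODE annotation, keeping genes with at least 5 reads in at least 1 library. All 18858 genes met this. The normalized columns (30) and the columns of the authors' DESeq2 comparisons (70, fold changes and p-values) were not used.

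Groups came from the sample labels. Counts of all 15 libraries were fitted in edgeR 4.0.16 (R 4.3.3) with TMM factors and robust quasi-likelihood tests, without a block. The labels pair no libraries, but their numbers form 3 runs (16 to 20, 21 to 25, 26 to 30). Deviations from the group means correlated over 0.1 in each of the 3 same-run pairs for siYAP+TAZ versus siControl (0.19 to 0.55) and siYAP versus siControl (0.28 to 0.57), but not in every pair with siTAZ, so values with the run as a block stand beside results of comparisons without siTAZ where they change a call. p-values were adjusted by Benjamini-Hochberg over 18858 genes, and a gene was called at an adjusted p of at most 0.05. Standard errors are the log2 fold change over the root of the F statistic. DESeq2 1.42.0 and limma-voom (limma 3.58.1) were alternatives, as were other scalings, filters, sample sets, references and left-out libraries. Scripts were tested on simulated data. The genes of 1 further list, counted among the 58 pathway genes of the alternatives, are not reported here. The 10 genes and all lists were chosen with earlier results of these data known. Genes named outside the set were the siRNA targets, all tested SRF cofactors, up to 5 called genes per list with the largest change in siYAP+TAZ, and the 3 genes most like each member whose group means spanned over 0.5 log2. Genes not passing the test, called in siTAZ only, called only with the block or overlapping a member, and PDLIM7, were named after their values were seen. Exonic lengths and overlaps were taken from GENCODE 44 on GRCh38, and the share of 50-base stretches from its transcripts. Intervals come from the 1 fit of all 15 libraries, 3 per group, in which the groups share the estimate of spread. Depths ranged from 18696737 to 30107312 reads over the 15 libraries.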

Additional observations from a re-analysis of the deposited data

How the results depend on the processing

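Of the 10 genes, 3 were called in siYAP+TAZ versus siControl and 6 with library runs 16 to 20, 21 to 25 and 26 to 30 as a replicate block, where 18.4% and 28.6% of all genes were called. The block also gave 2 calls in siYAP, 1 in siTAZ and 3 in siYAP versus siTAZ, and 10 and 16 calls among 58 other SRF pathway genes (0 and 3 without it) in siYAP and siTAZ. Calls over all genes rose with it as well, to 6.1% in siYAP, 10.3% in siTAZ and 7.32% in siYAP versus siTAZ (0.933%, 2.03% and 0.642% without it). Against siControl, the calls added among the 10 genes were SRF (adjusted p = 0.0224), ACTA2 (0.0348) and VCL (0.0117) in siYAP+TAZ, TAGLN (0.0443) in siYAP and TPM4 (0.0187) in siTAZ. The labels do not give the runs as pairs. Deviations from the group means had a correlation over 0.1 in 26 of 30 pairs of libraries of the same run, with a median of 0.39. The 4 other pairs all held siTAZ replicate 24, and 10 of 15 libraries correlated best with their own run. Between runs the median was −0.32, which the centring sets in part, because the deviations of each group sum to 0. Pairs of different runs reached 0.39 for siControl replicate 17 and siYAP+TAZ replicate 25, so the values do not show 3 distinct blocks. Among the 10 genes, the block changed no other call in the 3 comparisons with siControl. In siYAP, 2 of the 10 were called with Control as reference, 0 with library size only and 0 with only the groups compared. DESeq2 gave 1 in siTAZ and 2 in siYAP versus siTAZ. Other pathway genes called in siYAP numbered 2 with Control as reference, 4 with DESeq2, 1 with each stricter filter, 1 with library size only and 2 with only the groups compared; in siTAZ they numbered 7 with Control as reference, 7 with DESeq2, 5 with each filter, and 1 with only the groups compared. Of all genes, these settings called in siYAP 1.46% (Control as reference), 2.12% (DESeq2), 1.19% and 1.21% (filters), 1.1% (library size only) and 0.742% (only the groups compared), and in siTAZ 3.4%, 4.25%, 2.84%, 2.95%, 2.41% and 0.78%. Leaving out 1 library gave 1 to 3 calls of the 10 in siYAP+TAZ, 0 to 1 in siYAP and 0 to 3 in siYAP+TAZ versus siTAZ, and 11 to 18, 0 to 1 and 1 to 7 other pathway genes in siYAP+TAZ, siYAP and siTAZ, where 13.3% to 15.5%, 0.143% to 0.726% and 0.361% to 4.78% of all genes were called (2.47% to 5.03% in siYAP+TAZ versus siTAZ). The cause was not tested.

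Signs that turned were all of values not called. With Control as reference, CNN1 was −0.49 and TPM2 −0.0693 in siYAP+TAZ, ACTA2 −0.50 and TPM2 −0.0124 in siYAP, and TAGLN −0.10 and CNN1 −0.32 in siTAZ; with limma-voom CNN1 was 0.27 in siYAP. With 1 library left out, TPM2 ran from −0.0274 to 0.0974 in siYAP+TAZ, and in siYAP ACTA2 ran from −0.0365 to 0.143, CNN1 from −0.62 to 0.36 and TPM2 from −0.0460 to 0.223. CNN1 was removed by the 2 stricter filters. CNN1 and ACTA2 had few reads, at a mean of 4.81 and 24.1 normalized counts.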

Other observations

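3 of the 10 genes had group means that spanned over 0.5 on the log2 scale, ACTA2 (0.72), TAGLN (0.98) and CNN1 (1.13). Among 13201 other genes that averaged 20 or more normalized counts, those nearest to TAGLN over the 15 libraries, by the root mean square difference of centred log2 values, were GPR1 (0.22), NNMT (0.23) and FSTL3 (0.24), where TAGLN itself varied by 0.45 about its mean. FSTL3, a secreted activin antagonist, had means of 1524 normalized counts in siControl, 1072 in siYAP, 1483 in siTAZ and 1132 in siYAP+TAZ. NNMT, a nicotinamide methyltransferase, had means of 135, 110, 161 and 115 in the same order, and GPR1 233, 161, 262 and 140.

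The genes nearest to ACTA2 were DNAL4 (0.23), HSPA1L (0.23) and GABPB2 (0.24), where ACTA2 varied by 0.38. Those nearest to CNN1 were SNAI1 (0.46), IGSF9B (0.48) and LZTS1 (0.51), where CNN1 varied by 0.78 on counts of 0 to 9.38, so this order rests on few reads. These are descriptions over the same libraries that gave the values of the set.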
